A study of Danio rerio with 3 samples.

Results

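The Myc genes encode basic helix-loop-helix leucine zipper transcription factors that drive cell growth. The 4 genes described here, mych, myca, mycb and mycn, were taken by name from the 19260 named genes of the array, with current gene symbols, and all 4 were found. The group was selected on its measured values: mych was known to differ from naive in opposite directions in the 2 treated groups. The mych differences below are therefore a description and support nothing. Each of the 4 genes was represented by 1 probe set, and all 4 passed the dim limit of 3.45, the lower quartile of all values, on every array.

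Brain RNA of adult zebrafish was measured on 3 arrays, 1 for each condition, from fish 6 months old kept at 28 °C. Naive fish had 14 h of light followed by 10 h of darkness each day. Sleep-deprived fish were kept in light for 24 h a day, with 0 h of dark, over 3 days. The added light and the loss of sleep cannot be told apart in this design. Fear-conditioned fish, titled as learning-trained in the labels, had been through inhibitory avoidance learning, a task that teaches an animal to hold back from a move that brings an unpleasant stimulus. For these fish the sources used here state no light hours. Those sources also state no strain, genotype, sex, sampling time or pooling of fish, and the brain as a whole stands for each group. With 1 array per group no difference has a replicate check, a standard error or a p-value, and the number of arrays limits the precision. In bulk tissue, fewer cells of a type and less RNA per cell cannot be told apart.

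Myc proteins bind DNA as dimers with Max and switch on genes of ribosome assembly, nucleotide and polyamine synthesis and the cell cycle. Proteins of the Mxd and Mnt groups compete for Max and repress many of the same sites. Zebrafish have a pair of counterparts of mammalian c-Myc, myca and mycb, an N-myc gene, mycn, a pair of L-myc genes, mycla and myclb, and mych, a further family member known from neural crest development. In mammals, c-Myc is an early-response gene that growth factors and cytokines induce in resting cells, and N-Myc acts in neural progenitors.

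Of the 4 genes, mych differed most between the arrays. Its signal, the log2 value deposited for its probe set, was 6.70 on the naive array, 7.70 on the fear-conditioned array and 5.44 on the sleep-deprived array. The fear-conditioned array was thus the highest and the sleep-deprived array the lowest, with naive between them. The log2 difference from naive was -1.26 under sleep deprivation, a level 2.39-fold lower. Under fear conditioning it was 1.002, a level 2.003-fold higher, which lies at the 2-fold threshold: centring each array on its median over the named genes gave 0.997 and quantile normalization 0.999, both just short of it. Set directly against each other, the sleep-deprived array was lower than the fear-conditioned one by a log2 difference of -2.26, a 4.78-fold distance.

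**Figure D1:**
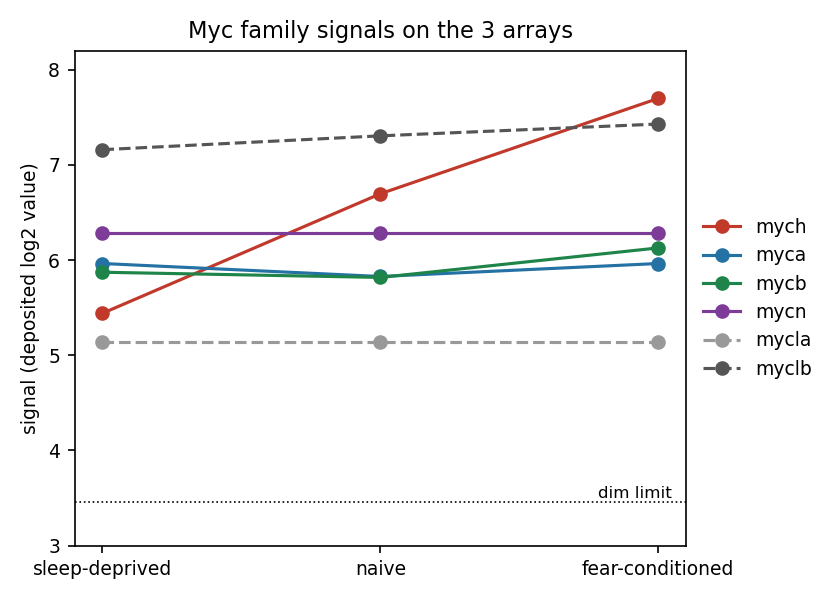
Deposited log2 signal (y axis) of the 4 myc genes (solid lines) and the L-myc genes (dashed lines) on the 3 arrays (x axis), 1 point per array. Each line is read along its own course, since the levels of different probe sets are not comparable. The mych line runs from 5.44 to 7.70, and the other lines are flat or nearly so.

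The c-Myc counterparts differed little between arrays. For myca the signal was 5.83 on the naive array and 5.96 on both treated arrays, a log2 difference of 0.14 in each comparison with naive. The 2 treated arrays carried the same myca value to every deposited decimal, although no other probe set on either array held that value. For mycb the signal was 5.82 on the naive, 6.13 on the fear-conditioned and 5.87 on the sleep-deprived array. The mycb difference from naive was 0.31 under fear conditioning, a level 1.24-fold higher, and 0.05 under sleep deprivation, 1.04-fold. Among all genes, the central 95% of differences ran from -0.36 to 0.36 for fear-conditioned minus naive, so the mycb value lies inside that range. It lies near the upper end, with 602 genes (3.35%) at a more positive value.

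The N-myc gene mycn had a signal of 6.28 on each of the 3 arrays, and the deposited values were exactly equal. That value was not particular to mycn: 11 probe sets on the naive array, 32 on the fear-conditioned array and 11 on the sleep-deprived array carried it. Equal values of this kind were frequent, with 6136 of 17958 genes (34.2%) equal on all 3 arrays. A difference of 0 for such a gene means that the deposited table holds no difference, and how the ties came about was not tested.

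In sleep-deprived fish, 1 of the 4 genes had a signal at least 2-fold below naive, and 0 were higher by that much. Over all genes tested in that comparison 0.668% were lower by 2-fold or more and 0.0947% higher. On the fear-conditioned array, 1 of the 4 was at least 2-fold higher than naive and 0 were lower, where 0.245% of all genes were higher and 0.184% lower. Between the treated arrays, 1 of the 4 was at least 2-fold lower under sleep deprivation and 0 were higher, where 0.869% of all genes were lower and 0.134% higher. That gene was mych each time, and because it was chosen for this pattern nothing is read from these counts. At a 1.5-fold threshold the counts of the 4 genes were the same, where 2.43% of all genes were lower and 0.484% higher for sleep-deprived minus naive, and 0.763% lower and 0.830% higher for fear-conditioned minus naive.

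Across the 17958 genes, 67 had a more negative difference than mych for sleep-deprived minus naive and 43 a more positive one for fear-conditioned minus naive. For sleep-deprived minus fear-conditioned, 10 genes had a more negative value. Central ranges were narrow beside these values: the middle 95% of genes lay between -0.58 and 0.32 for sleep-deprived minus naive. Since mych was chosen for its differences, nothing is read from its place among all genes. The comparisons with naive share the naive array, so 1 unusual naive value enters both.

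**Figure D2:**
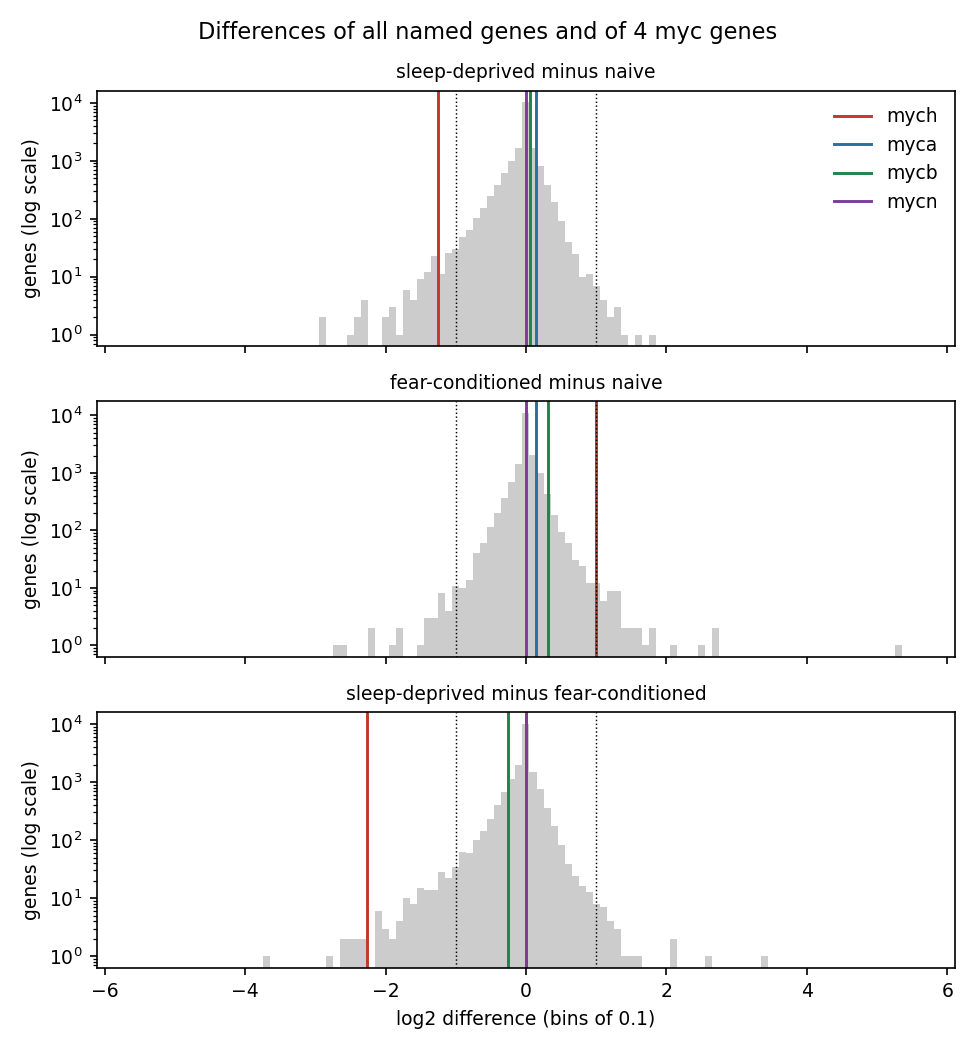
Number of genes (y axis, log scale) by log2 difference (x axis, bins of 0.1) in the 3 comparisons, for 17958 genes. Coloured lines mark the 4 myc genes and dotted lines 2-fold. The mych line lies at -1.26, 1.002 and -2.26 from the top panel to the bottom one, while myca, mycb and mycn lie between -0.26 and 0.31; in the bottom panel myca is hidden behind mycn at 0.

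The L-myc genes, which were not among the 4 chosen, are the closest relatives measured. The mycla signal was 5.14 on all 3 arrays and exactly equal, a value that 64, 58 and 104 probe sets carried on the naive, fear-conditioned and sleep-deprived arrays. For myclb the signal was 7.31 on the naive, 7.43 on the fear-conditioned and 7.16 on the sleep-deprived array. Its differences of 0.12 and -0.15 from naive have the signs of the mych differences at a much smaller size.

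In the wider Max network, 0 of 9 measured genes were as much as 1.5-fold apart in either comparison with naive. Over all genes 2.43% were lower and 0.484% higher by that much under sleep deprivation, and 0.763% and 0.830% under fear conditioning. A count of 0 among 9 is near that background. The list held 12 genes of the Max network, 9 of which were measured alone by a probe set, and mlx, mnta and mgab were not analysed here. The gene max itself, the common partner, had a signal of 7.91 on every array, exactly equal. So had the repressor genes mxd3 at 5.87 and mntb at 6.12, and mlxipl, the ChREBP gene of glucose sensing, at 4.99. That mlxipl value was carried by 223, 223 and 227 probe sets on the naive, fear-conditioned and sleep-deprived arrays. These 4 genes thus give no difference to read. The repressor gene mxd4 had signals of 8.39 on the naive, 8.03 on the fear-conditioned and 8.18 on the sleep-deprived array, differences of -0.37 and -0.21 from naive under fear conditioning and sleep deprivation. The -0.37 of mxd4 was the largest in size among the 9. For mgaa, which encodes a large Max partner with a T-box, the sleep-deprived array was 0.18 above naive and the fear-conditioned array 0.05 below it. Its 3 probe sets gave differences from 0.02 to 0.31 for sleep-deprived minus naive. The repressor genes mxd1 and mxi1 and the MondoA gene mlxip were below naive on the sleep-deprived array by small amounts, with differences of -0.07, -0.09 and -0.07. On the fear-conditioned array their differences were 0, -0.01 and -0.01. The mxi1 values are means of 2 probe sets. For sleep-deprived minus naive, 1 of these was at -0.19, and the other was exactly equal on all 3 arrays, at 5.04.

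**Figure D3:**
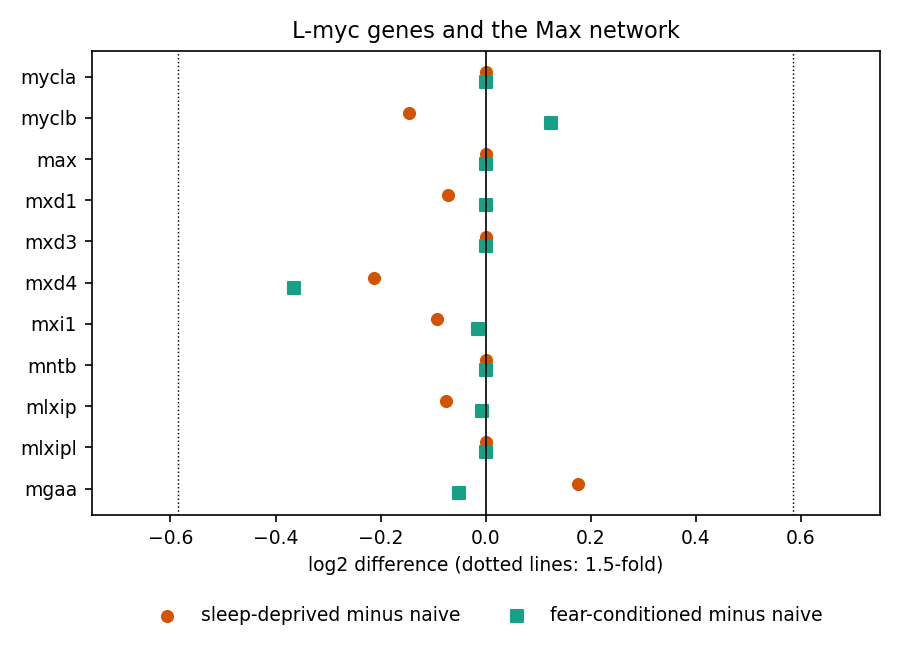
Log2 difference from naive (x axis) of the L-myc genes and the 9 measured Max network genes (y axis) for sleep-deprived (circles) and fear-conditioned (squares) arrays. Every point lies inside the dotted 1.5-fold lines, and mycla, max, mxd3, mntb and mlxipl lie at 0 in both comparisons.

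Genes that Myc proteins are known to act on or work with were followed in 6 further lists, described by counts and medians beside those over all genes. All lists used here were chosen with earlier results of these data known. Their counts and medians are therefore a description and support nothing. In sleep-deprived minus naive, 30.9% of all genes were lower, 24.8% higher and 44.3% exactly equal, with a median of 0. In fear-conditioned minus naive, 23.2% were lower, 30.6% higher and 46.2% equal, again with a median of 0. These shares count deposited values of any size: the same centring on named genes adds 0.04 to every sleep-deprived minus naive difference and would count the equal genes as higher there.

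Among the Myc-related lists, nucleotide, polyamine and translation genes showed the lowest median under sleep deprivation. Beyond what its name covers, this list also holds genes of amino acid transport, ldha and tert. The list median was -0.20 over 29 genes, with 19 lower (65.5%), 1 higher and 9 equal, and it remained negative with centring, at -0.16. At least 1.5-fold lower were 5 of the 29, where 2.43% of all genes were, and 2 were at least 2-fold lower, where 0.668% were. The gene slc3a2a, which encodes the heavy chain of amino acid transporters, had signals of 9.20 on the naive, 8.52 on the fear-conditioned and 8.02 on the sleep-deprived array. It was lower than naive on both treated arrays, by differences of -0.68 and -1.18. For mthfd1l, an enzyme of mitochondrial folate metabolism, the difference under sleep deprivation was -1.03, and -0.98 with centring, short of 2-fold. That value is the mean of 2 probe sets that disagreed, one at -2.06 and the other exactly equal on all 3 arrays. The glutamine transporter gene slc1a5 (-0.77) and slc3a2b (-0.69) followed. Of the 5 genes at least 1.5-fold lower, slc3a2a, slc1a5 and slc3a2b thus belong to amino acid transport. The others were mthfd1l and impdh2, the latter at -0.62.

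Under fear conditioning the same list had a median of 0.03, with 16 of 29 genes higher (55.2%), 6 lower and 7 equal. At least 1.5-fold higher were 0 of the 29, where 0.830% of all genes were, and slc3a2a was the 1 gene at least 1.5-fold lower, where 0.763% of all genes were. Ornithine decarboxylase, the enzyme that starts polyamine synthesis and a textbook Myc target in mammals, is encoded by odc1. The odc1 signal was 7.51 on the naive array, 8.09 on the fear-conditioned array and 7.51 on the sleep-deprived array, equal to naive. Its fear-conditioned difference of 0.58 stood just under 1.5-fold. The cap-binding protein gene eif4eb had a signal of 6.29 on the naive, 6.86 on the fear-conditioned and 5.85 on the sleep-deprived array. For eif4eb the differences from naive were 0.58 under fear conditioning and -0.43 under sleep deprivation. The folate enzyme gene mthfd2 was at 0.47 under fear conditioning, with its 2 probe sets at 0.39 and 0.54, and at -0.16 under sleep deprivation.

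Ribosome biogenesis genes, a main class of Myc targets in mammals, differed from naive by small amounts. Of 48 genes, 20 were lower (41.7%), 4 higher and 24 equal under sleep deprivation, with a median of 0 and a mean of -0.07, where the mean over all genes was -0.03. Under fear conditioning 23 were higher (47.9%), 1 lower and 24 equal, with a median of 0 and a mean of 0.05, where the mean over all genes was 0.01. The only gene of the 48 at least 1.5-fold apart from naive in either comparison was npm1a, one of the nucleophosmin genes, at -0.59 under sleep deprivation. That is 1 of 48 genes, near the share over all genes, of which 2.43% were lower by 1.5-fold or more in that comparison. Its signals were 6.83 on the naive, 7.21 on the fear-conditioned and 6.24 on the sleep-deprived array. Next came imp4, a component of the small subunit processome, at -0.41, the rRNA methyltransferase gene ftsj3 at -0.32, and the nucleostemin gene gnl3 at -0.30. On the fear-conditioned array npm1a was at 0.38, the small nucleolar RNP gene nop10 at 0.32, polr1d, a subunit shared by RNA polymerases I and III, at 0.31, and gnl3 at 0.29.

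In the deposited values, genes that Myc represses in mammals did not include one higher than naive under sleep deprivation. Of 15 such genes 8 were lower, 7 equal and 0 higher, with a median of -0.03 that became 0.02 with centring. Over all genes 30.9% were lower, 44.3% equal and 24.8% higher. Centring adds 0.04 to each difference and would count the 7 equal genes as higher. The cdkn1bb value is a mean of 2 probe sets, at -0.26 and 0.06. Of the 15, 2 were lower by 1.5-fold or more and 1 of them by 2-fold or more, where 2.43% and 0.668% of all genes were. The growth arrest gene gadd45ba was at -1.07, the stress-induced gene ndrg1a at -0.79, gadd45ga at -0.47 and the cyclin-dependent kinase inhibitor gene cdkn1a at -0.41. Under fear conditioning the list had 5 lower, 1 higher and 9 equal, a median of 0 and no difference beyond -0.14, that of gadd45ba.

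Cell cycle genes had a median of 0 in both comparisons with naive, and 0 of 22 were at least 1.5-fold apart. Over all genes 2.43% were lower and 0.484% higher by that much under sleep deprivation, and 0.763% and 0.830% under fear conditioning, so a count of 0 among 22 is near the background. The replication clamp gene pcna was at 0.49 under fear conditioning and 0.22 under sleep deprivation. The mitotic kinase gene cdk1 was at 0.39 and 0.02, but on the naive array its signal, 3.96, was not far above the dim limit. For cdk4, a G1 kinase and a Myc target in mammals, the differences were -0.47 and -0.37 in that order. The helicase subunit gene mcm7 was at -0.40 and -0.23, while mcm6 was equal to naive under fear conditioning and at 0.33 under sleep deprivation. The cyclin gene ccnd2a was at -0.25 and -0.44.

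Cofactors of Myc and proteins that set its stability had a median of 0 over 23 genes in both comparisons. The Pim kinases, which cooperate with Myc in lymphoid tumours of mice, were below naive under sleep deprivation, with pim1 at -0.83, pim2 at -0.59 and pim3 at -0.37. Under fear conditioning pim1 was at -0.04, pim2 at -0.22 and pim3 at 0.26. The gene bin1b, a zebrafish counterpart of the Myc-interacting adaptor BIN1, was at -0.77 under fear conditioning and -0.53 under sleep deprivation. The histone acetyltransferase scaffold gene trrap was at 0.17 and 0.29 in that order. In the cofactor list, 2 genes were at least 1.5-fold lower under sleep deprivation and 1 under fear conditioning, with 0 higher in either. The shares over all genes were 2.43% and 0.763% lower in that order.

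A list of 20 genes covered signalling pathways upstream of Myc, namely the Stat3, Wnt, Notch and progenitor pathways. It also holds inhibitors and targets of these pathways, such as socs3a and her6. The list median was -0.04 under sleep deprivation, which became 0.01 with centring, and 0.02 under fear conditioning. The cytokine signalling inhibitor gene socs3a had signals of 7.06 on the naive, 6.68 on the fear-conditioned and 5.17 on the sleep-deprived array. Its difference of -1.89 under sleep deprivation was the 1 of 20 past 2-fold, where 0.668% of all genes were lower and 0.0947% higher by that much. The transcription factor gene stat3, known to induce Myc in mammals, was at -0.32 under sleep deprivation and 0.14 under fear conditioning. In the same order, the growth factor gene hbegfa was at -0.45 and 0.39, socs3b at -0.26 and 0.33, the Wnt pathway factor lef1 at 0.43 and 0.15, and her6, a Notch target, at -0.07 and 0.17.

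**Figure D4:**
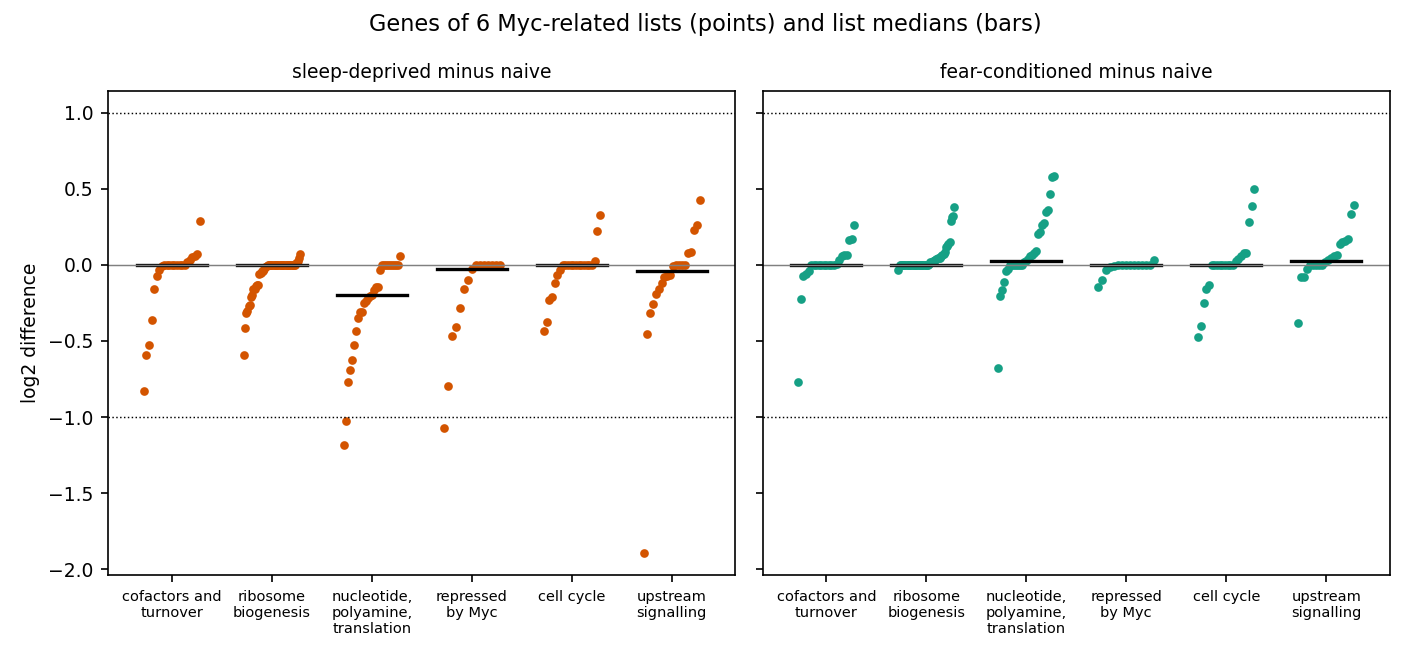
Log2 difference from naive (y axis) of every gene kept in 6 lists related to Myc (x axis), for the sleep-deprived array on the left and the fear-conditioned array on the right. Points are genes sorted by value within a list, bars are list medians and dotted lines mark 2-fold. The median of the nucleotide, polyamine and translation list lies at -0.20 on the left and 0.03 on the right.

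The genes nearest to mych were found by the Euclidean distance between pairs of differences from naive, over 3 arrays and 16037 genes with a proper name. Nearest was igfbp1a, an insulin-like growth factor binding protein gene, at a distance of 0.07, with signals of 7.51 on the naive, 8.54 on the fear-conditioned and 6.19 on the sleep-deprived array. The cadherin gene cdh1 of epithelia came next at 0.27, with 5.12, 6.40 and 3.87 in the same order, the last not far above the dim limit. Then followed rgcc, a regulator of the cell cycle, at 0.29, the astroglial filament gene gfap at 0.43, and fosl1a, of the AP-1 transcription factors, at 0.46. Each of the 5 had naive between the treated arrays. At distances of 0.46 or less from mych, whose differences were -1.26 and 1.002, no other order was possible, so nothing is read from it.

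**Figure D5:**
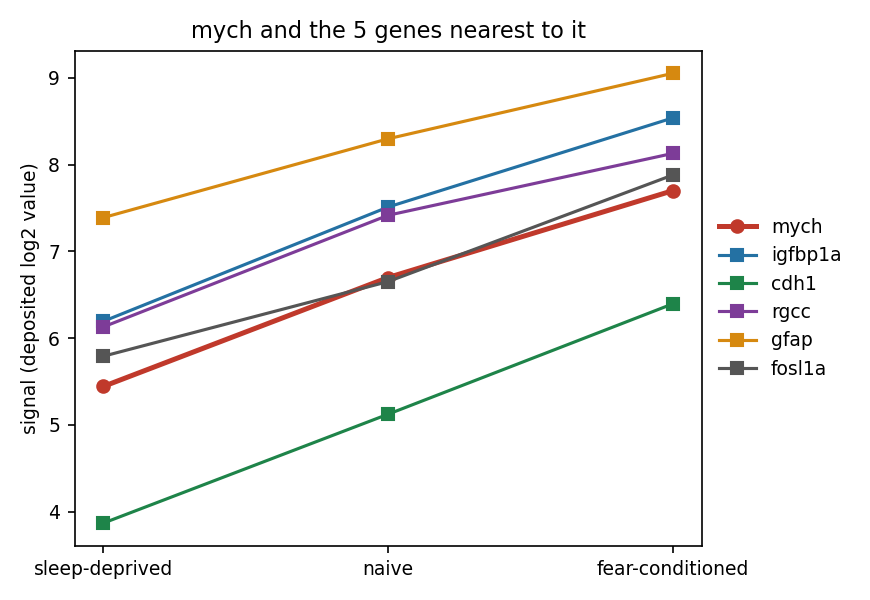
Deposited log2 signal (y axis) of mych (thick line) and the 5 genes nearest to it (thin lines) on the 3 arrays (x axis), 1 point per array. Each line is read along its own course: all 6 are lowest on the sleep-deprived and highest on the fear-conditioned array, as the choice by nearness requires.

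Markers of several cell types stood apart between the arrays beside mych. The marker lists too were chosen with earlier results of these data known, so their counts are a description. Neuron markers, which define the labelled tissue, were bright on all arrays, with 8 of 8 above the median of all values and mean levels of 9.95 on the naive, 10.00 on the fear-conditioned and 10.02 on the sleep-deprived array. All 8 skin and epithelium markers were higher on the fear-conditioned array than on the naive one, 4 of them at least 2-fold, where 30.6% of all genes were higher and 0.245% at least 2-fold. On the sleep-deprived array 5 of the 8 were lower, where 30.9% of all genes were. Their mean level was 5.24 on the naive, 6.22 on the fear-conditioned and 4.86 on the sleep-deprived array. None lay below the dim limit, but epcam at 3.59 and cdh1 at 3.87 were not far above it on the sleep-deprived array. At or above the median of all values were 4 of the 8 on the naive, 8 on the fear-conditioned and 3 on the sleep-deprived array. This is the same order as for mych. Oligodendrocyte and red blood cell markers had mean levels in that order too, at smaller distances. On the naive, fear-conditioned and sleep-deprived arrays, oligodendrocyte markers had mean levels of 8.24, 8.28 and 8.10. Red blood cell markers had 6.04, 6.11 and 5.83 in the same order of arrays. For fear-conditioned minus naive, the median difference was 1.02 over the skin and epithelium markers. It was 0.01 over the oligodendrocyte markers and 0 over the red blood cell markers, of which 2 were higher, 2 lower and 2 equal. For sleep-deprived minus naive the medians were -0.31, -0.13 and -0.02 in that order of lists. Of the red blood cell markers, 3 were higher and 3 lower in that comparison. Endothelium markers did not follow the mych order, with mean levels of 6.73 on the naive, 6.70 on the fear-conditioned and 6.49 on the sleep-deprived array. All 10 microglia and macrophage markers were lower on both treated arrays, where 30.9% of all genes were lower under sleep deprivation and 23.2% under fear conditioning. The mean levels of these markers were 8.56 on the naive, 8.10 on the fear-conditioned and 7.88 on the sleep-deprived array. Of 9 radial astroglia markers 6 were lower under sleep deprivation and 7 under fear conditioning, beside the same shares of all genes. Their median differences were -0.20 and -0.10 in that order. Their mean level was 9.65 on the naive, 9.64 on the fear-conditioned and 9.14 on the sleep-deprived array. Under sleep deprivation nes at -2.36, gfap at -0.91 and cyp19a1b at -0.87 were the lowest, and under fear conditioning gfap was at 0.76. The part of these cell types in the mych signal was not tested.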

How the data were processed

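Brain RNA of 3 zebrafish groups was measured on 1 array each, and groups were taken from the labels. Per the labels' protocols, sense cDNA was fragmented and labelled with biotin. The deposited values, 0.61 to 13.4, span the range of log2 signals and were read as such, though no source names the log base. All arrays had a median of 4.99 as the authors deposited them, after a normalization not given in the sources used here, so a shift of all genes cannot be seen. Of 75212 probe sets, 20806 had 1 gene symbol, and 855 with several symbols were not used. Symbols of 20323 were updated by Entrez identifier with a RefSeq table of assembly GRCz12tu. Probe sets of a gene were averaged, and 1302 of 19260 genes whose highest array was below 3.45 were left out, leaving 17958.

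Differences between arrays were taken as deposited, with a 2-fold threshold and no test. Members and lists were chosen with earlier results of these data known. Named were the 4 genes, the L-myc and Max network genes, up to 4 genes per further list with the largest difference in size in each comparison with naive, and the 5 genes nearest to mych without clone or locus names. Outside this rule, impdh2, some cell type markers and some genes whose probe sets disagreed were named after the values were seen. Among the measured genes of the lists, tyms and her4.1 each stand in 2. Alternatives were centring on each array's median over named genes, quantile normalization, removal of a lowess trend (fraction 0.3), the brightest probe set, no dim filter, a dim filter at 4.99, a 1.5-fold threshold and dim values set to the limit. In simulated data for sleep-deprived minus naive with 17958 genes, the counting step recovered 200 of 200 genes changed 3-fold and called 0 others. The simulated noise was small and even and held no tied values, and 3-fold lies well past the threshold. The simulation thus checks the counting step alone and says nothing about noise on the real arrays. Python 3.11.15, pandas 2.3.3, numpy 2.4.6 and statsmodels 0.14.6 were used.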

Additional observations from a re-analysis of the deposited data

How the results depend on the processing

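The 12 differences of the 4 myc genes were computed under 6 alternatives each. Those of mych ranged from -1.26 to -1.21 for sleep-deprived minus naive and from -2.26 to -2.21 for sleep-deprived minus fear-conditioned, past 2-fold each time. For fear-conditioned minus naive, mych stood at 0.997 with centring on the median of named genes and 0.999 with quantile normalization, short of 2-fold, because its deposited difference of 1.002 lies at the threshold. The other genes moved by less than 0.1. Each myc gene has 1 probe set, so taking the brightest or each probe set alone repeats the deposited value. A 1.5-fold threshold changes no difference. Setting dim values to the limit changes none here either, as all 4 genes lie above it on every array. Only centring, quantile normalization and removal of the lowess trend could move these differences. At 1.5-fold, the counts of all genes became 87 higher and 436 lower for sleep-deprived minus naive, 149 higher and 137 lower for fear-conditioned minus naive, and 101 higher and 487 lower for sleep-deprived minus fear-conditioned. At 1.5-fold, list genes apart under sleep deprivation numbered 2 for cofactors, 1 for ribosome biogenesis and 5 for nucleotide, polyamine and translation genes. They numbered 2 for genes repressed by Myc and 1, as at 2-fold, for genes of upstream signalling pathways. Under fear conditioning they numbered 1 for cofactors and 1 for nucleotide, polyamine and translation genes. With centring, the latter list had 1 gene past 2-fold under sleep deprivation in place of 2, as mthfd1l fell short. The 1.5-fold counts under sleep deprivation also hold genes close to that threshold, a log2 size of 0.585. These were pim2 and npm1a at -0.59 and impdh2 at -0.62. Adding the 0.04 of centring would put each of them short of 1.5-fold. All 96 list medians under alternatives stayed within 0.1 of the deposited ones. No paired analysis was possible because each group holds 1 array. The depth of signal over background is unknown, since no background values were used here.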

Other observations

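Probe sets of the same gene disagreed for several genes of the lists, a pattern picked out after the values were seen. For mthfd1l, a probe set with signals of 6.57 on the naive, 7.29 on the fear-conditioned and 4.51 on the sleep-deprived array gave differences from naive of 0.72 and -2.06 under fear conditioning and sleep deprivation, and the other probe set was equal on all 3 arrays at 4.81. For the keratin gene krt91, the probe sets were at 1.21 and 0 for fear-conditioned minus naive. For the cyclin gene ccnd1, they were at -0.43 and 0 for sleep-deprived minus naive. Each such gene is printed in the lists as the mean of its probe sets. The 4 myc genes have 1 probe set each, so no second probe set bears on the mych values.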
